A study of Mus musculus with 3 samples.

Results

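Mouse embryonic stem (ES) cells, pluripotent cells of the early embryo, were compared before and after 2 days of Gata6 overexpression. Gata6 is a DNA-binding protein with zinc fingers that marks the primitive endoderm. The comparison covers the total difference between the array labelled day 2 and the array labelled day 0, taken as the log2 ratio of the 2 signals for every gene. Of 18193 genes on the array, 13865 had a signal above the floor of 54.0 on at least 1 of the 2 arrays and were compared. The series holds 3 arrays, and the third, day 1, is given beside the others. The day 1 array entered the scaling, the floor and the choice of probe set, but not the log2 ratio itself. The day 0 array is the control, and per the series' design text the overexpression responds to dex, which is read here as dexamethasone, a synthetic glucocorticoid. Dose and timing of dex, the cell line, its promoter and whether the day 0 cells carried the Gata6 modification were not given in the sources used here. With 1 array per day there were no replicates and no test, so every value describes these 2 arrays, and a difference between the days is also a difference between 2 cultures.

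The primitive endoderm is the extraembryonic layer that separates from the pluripotent epiblast in the blastocyst. It gives rise to parietal endoderm, which secretes the thick basement membrane of the yolk sac, and to visceral endoderm, an absorptive epithelium that takes up maternal proteins, digests them in lysosomes and secretes plasma proteins. GATA factors drive this fate and repress the pluripotency network in ES cells, and an ES cell that takes it up leaves a fast-dividing, compact state for a secretory and absorptive one.

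Median signals were 84.2 on day 0 and 86.4 on day 2, in the arbitrary linear unit of the array software. Error could be judged only where a gene had more than 1 probe set. From the disagreement of 15471 such pairs, the SD of a log2 ratio was 0.42 in all, and it was 0.52, 0.37, 0.22 and 0.15 for pairs whose dimmer probe set lay under 200, from 200 to 1000, from 1000 to 5000 and over 5000. This SD holds measurement error and any other difference between the probe sets of a gene, and not the spread between cultures. Only probe sets above the floor on both arrays entered it, so genes at the floor on either day are outside this estimate. Probe sets for olfactory and vomeronasal receptors gave a background of 70.2 (the 95th percentile of 80 probe sets), and the words "at least" before a fold mean that the dimmer signal lay at the floor or under this background. The 3' to 5' ratio of the Actb control probe sets was 1.25 on day 0 and 1.24 on day 2, and that of Gapdh 0.784 and 0.765.

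A fold of at least 2, with the brighter signal above the floor, was counted as a difference. Counted in this way, 1532 genes were higher on day 2, which is 11% of those compared, and 1399 were lower, 10.1%, so that 21.1% differed in either direction and 10934 lay within 2-fold. The median log2 ratio of all genes was -0.05, with quartiles of -0.51 and 0.45. The higher side reached further: 478 genes were at least 4-fold higher against 327 lower, 77 were at least 16-fold higher against 19 lower, and 38 against 0 passed 32-fold. Of the higher genes 308 (20.1%) were at the floor on day 0, and of the lower genes 254 (18.2%) were at the floor on day 2. By chromosome, the share of higher genes ran from 8.22% to 16.3% (the latter on chromosome 13) and the median log2 ratio from -0.15 to 0.05 over 20 chromosomes. Among the receptor probe sets, 2 of the 18 above the floor (11.1%) differed at least 2-fold, a share that bears on dim genes in particular.

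**Figure D1:**
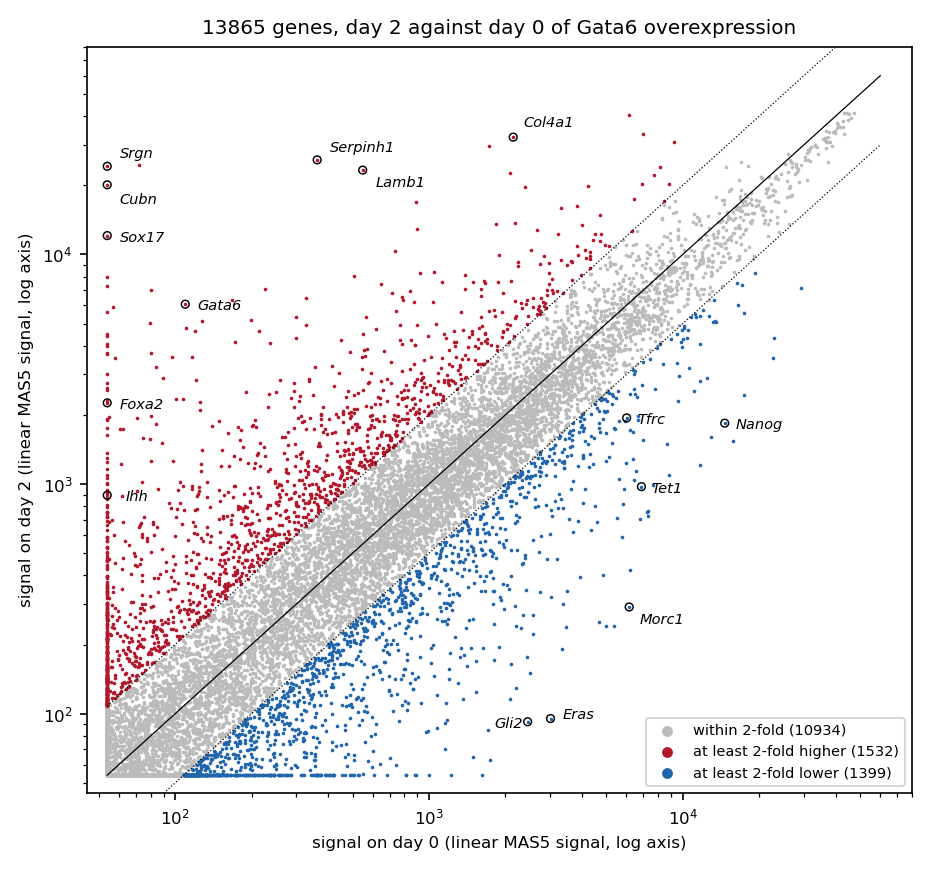
Signal of 13865 genes on day 0 (horizontal) and day 2 (vertical), linear MAS5 signal on log axes, 1 array a day. Red points are the 1532 genes at least 2-fold higher, blue points the 1399 at least 2-fold lower and grey points the 10934 within 2-fold; the solid line marks equal signal and the dotted lines 2-fold. The columns of points at 54.0 are genes at the floor, and the red points reach further from the equal line than the blue ones.

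Defining markers were read before the gene groups and, like the lists, were chosen with earlier results of these data known. Signals below are given in the order day 0, day 1, day 2. Gata6 itself read 109.6, 5574 and 6069.6, a log2 ratio of 5.79 on day 2 that ranged from 0.93 to 5.79 over its 3 probe sets. All 7 primitive endoderm markers compared were higher, with a median log2 ratio of 6.37, and so were all 10 parietal endoderm markers, with a median of 4.17. Gata6, the overexpressed gene, is counted among these 7, so they are no independent check of the labels. Of 10 ES cell markers, 9 were lower, with a median of -3.27. The exception, Dppa5a, an RNA-binding protein of pluripotent cells, read 40759, 37051 and 36734. Among 8 visceral endoderm markers compared, 5 were higher and 0 lower. Several of this layer's secreted markers were at or near the floor: Afp and Cer1 were at the floor on each array, and Apoa1 and Apob reached only 56.6 and 65.7 on day 2. Definitive endoderm, the embryonic gut layer that shares Foxa2 and Sox17 with extraembryonic endoderm, was represented by Foxa2 alone, since Cxcr4 and Gsc were at the floor and Mixl1 (the floor, the floor and 59.3) and Eomes (555, 716 and 611) differed little. In bulk RNA of this kind, fewer cells of a type and less RNA per cell cannot be told apart, so a signal that remained on day 2 may belong to every cell or to some of them.

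Markers of other cells the culture could hold were read in the same way. The fibroblast list had 1 higher and 2 lower of 12 genes compared (median 0.04, and -0.41 to 0.12 over the alternatives), and Col1a1, Col3a1, Postn, Dcn, Lum and Pdgfrb were not above the floor on day 0 or day 2. Mesoderm genes had 3 higher and 3 lower of 16 (median -0.00), and neural genes 3 and 2 of 15 (median 0.15, and -1.11 to 0.27 over the alternatives, so its sign was not stable). Trophoblast genes had 9 higher and 3 lower of 20, with a median of 0.83. The highest of these were the keratin pair Krt8 (567, 1552 and 5366) and Krt18 (556, 1594 and 3846), which endoderm epithelia share, and Plac1, a placental membrane protein, at the floor, 155 and 475. Trophoblast regulators on the list differed among themselves. Cdx2 read the floor, 80.0 and 121 and Gata3 72.7, 91.6 and 162, dim but past 2-fold higher, and Tead4 read 191, 418 and 468 (2.45-fold higher), while Tfap2c and Ets2 (1314, 588 and 459.9) were lower and Eomes lay within 2-fold. The trophoblast median was 0.15 with a floor at the 60th percentile. The part of such cells in the results was not tested.

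**Figure D2:**
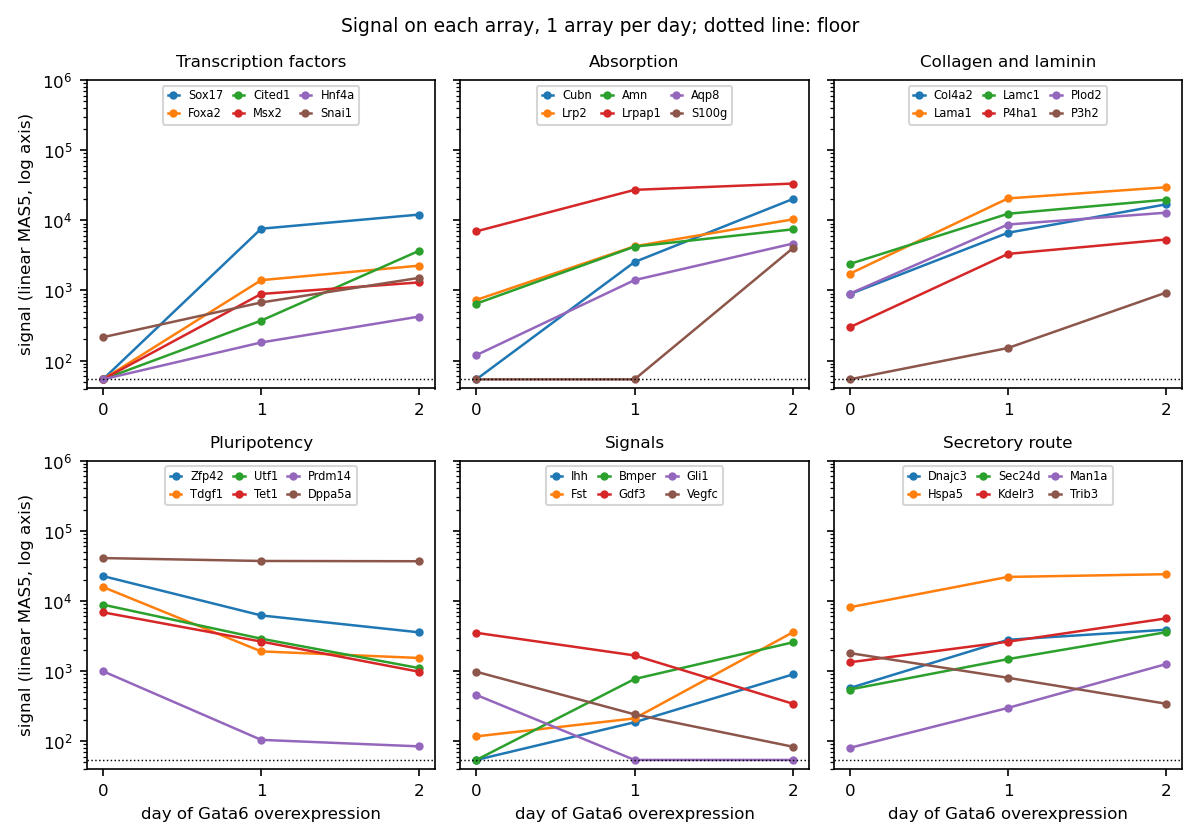
Signal of 36 genes on the day 0, day 1 and day 2 arrays (horizontal axis, day of Gata6 overexpression), linear MAS5 signal on a log axis, in 6 groups; each point is 1 array and the dotted line is the floor of 54.0. Transcription factors, absorption genes, and collagen and laminin genes were higher on day 2 than on day 0, S100g only on the day 2 array, while the pluripotency genes other than Dppa5a were lower.

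The 47 gene lists used below held 1582 genes on the array, of which 1436 were compared. They were spread on both sides of the background. Lists of secretion, matrix assembly and uptake lay mostly on the higher side, those of pluripotency, germ cells, DNA methylation and DNA replication on the lower side, and the oxidative phosphorylation list held no gene that differed 2-fold.

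**Figure D3:**
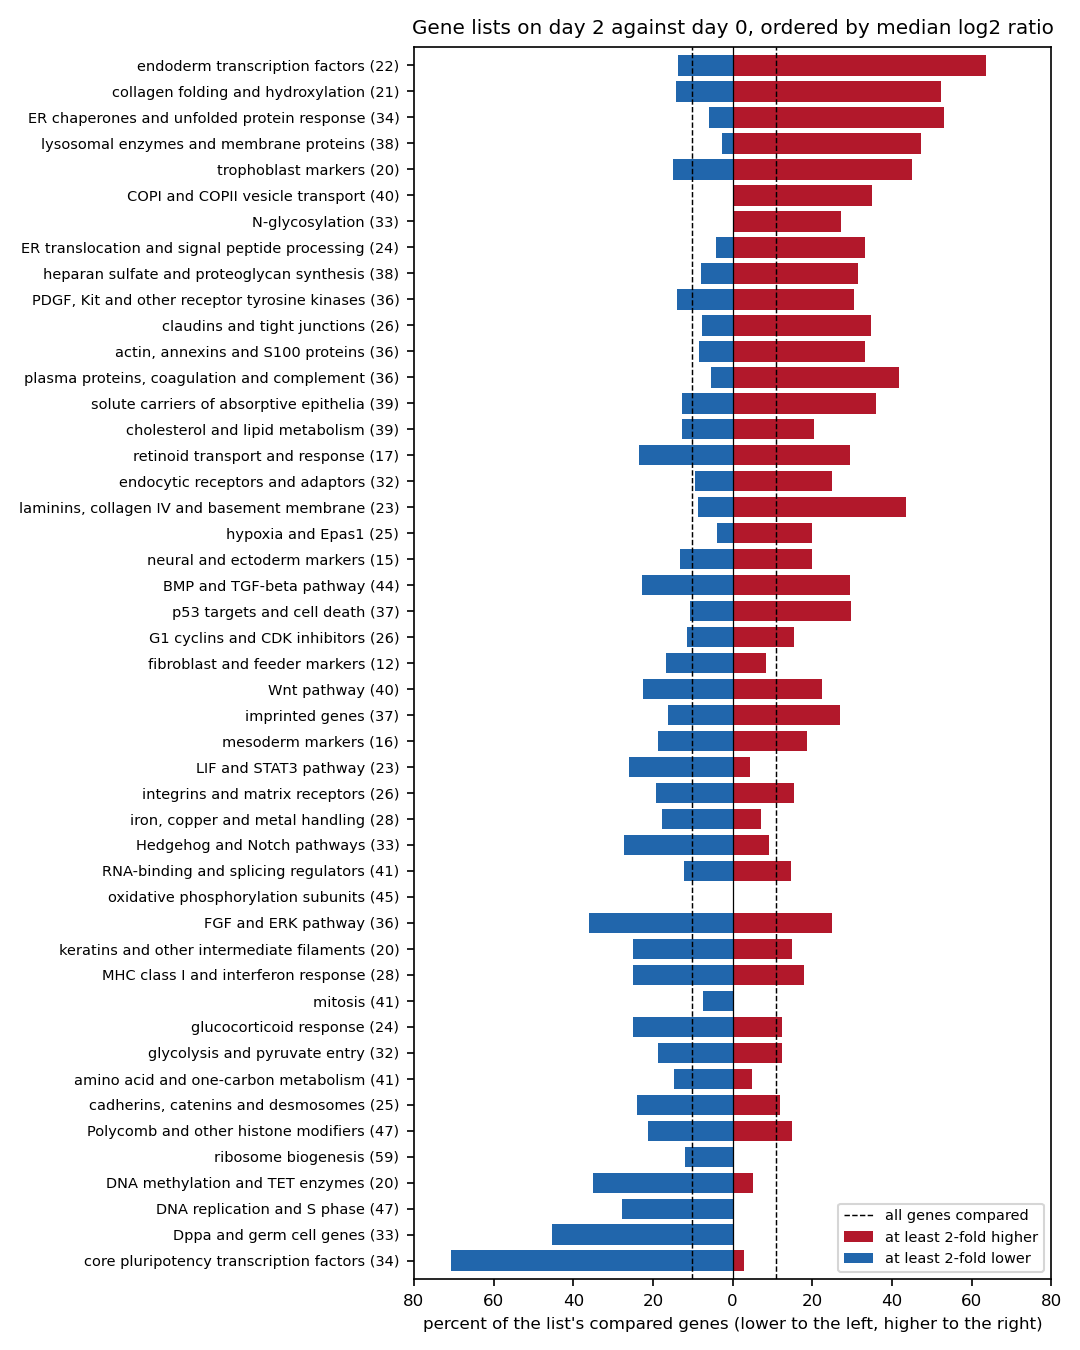
Percent of each list's compared genes that were at least 2-fold higher (red, to the right) or lower (blue, to the left) on day 2 than on day 0, with the number compared in parentheses, ordered by median log2 ratio. Dashed lines mark the shares over all genes compared, 11% higher and 10.1% lower; endoderm transcription factors stand at the top with 63.6% higher and core pluripotency factors at the bottom with 70.6% lower.

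Transcription factors of the endoderm were the list with the highest median. Of 22 compared, 14 were higher and 3 lower. Their median log2 ratio was 2.15, and ran from 1.23 to 2.68 over the processing alternatives. Foxa2, a pioneer factor of endoderm and liver, read the floor, 1401 and 2258 (at least 41.8-fold higher). Cited1, a transcriptional co-activator, read the floor, 371 and 3690.3 and was far higher on day 2 than on day 1. The homeobox gene Msx2 read the floor, 891 and 1302 (at least 24.1-fold higher), but its probe sets ranged from 0.41 to 4.59 on the log2 scale. Hnf4a, the nuclear receptor that runs the visceral endoderm and liver programme, was dim at the floor, 181 and 425. Further genes higher than on day 0 were the zinc finger repressor Snai1 (215, 673 and 1513), the GATA cofactor Zfpm1 (226, 1360.2 and 1327) and the homeobox gene Hhex (308, 435 and 1039.8). On the lower side stood 3 factors that ES or germ cells also use: the nuclear receptor Nr5a2 (1787, 853 and 344), Prdm1 (293, 79.0 and 76.1) and Tfap2c (885, 574 and 320.2).

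Basement membrane chains were among the brightest genes on day 2, and the enzymes that fold and modify collagen were higher with them. Of 23 laminin, collagen IV and related genes, 10 were higher and 2 lower (median 0.31, and 0.03 to 1.15 over the processing alternatives). Collagen IV, the network-forming collagen of basement membranes, had both of its main chains higher: Col4a1 read 2147, 14989 and 32402 and Col4a2 886, 6639.6 and 16887. The alpha, beta and gamma chains of the main laminin of early embryos were also higher, Lama1 at 1729, 20502 and 29584, Lamc1 at 2383, 12399 and 19671 and Lamb1 at 548, 18252 and 23289. Pxdn, the peroxidase that crosslinks collagen IV, read 125, 520.0 and 2280.1 (18.2-fold higher), and the linker Nid1 2181, 2904 and 6286. Against these, Col18a1 (2437, 638 and 176) and fibronectin, Fn1 (6547, 1336 and 1137), were lower.

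Of 21 collagen folding genes, 11 were higher and 3 lower, a share of 52.4% against the background of 11%, and the median was 1.02. The collagen chaperone Serpinh1 read 363, 15946 and 25803. Prolyl 4-hydroxylase, which stabilises the collagen triple helix, had both catalytic subunits and its common partner higher: P4ha1 read 298, 3319 and 5323 (17.8-fold), P4ha2 167, 1562 and 6323 (37.9-fold) and P4hb 7699, 16686 and 22062 (2.87-fold). Among the prolyl 3-hydroxylases, P3h2, which acts on collagen IV, read the floor, 151 and 933 (at least 17.3-fold higher), whereas P3h1 was 2.15-fold higher. The lysyl hydroxylases Plod2 (899, 8707 and 12839) and Plod3 (956, 1096 and 2767) were higher too. Creb3l2, a membrane-bound transcription factor of the secretory route, read 84.4, 978 and 1826, with 3.29 to 4.44 on the log2 scale over its 2 probe sets. The 3 lower members act outside the cell. Pcolce (5360.5, 1393 and 241) and Pcolce2 (1266, 438 and 215) enhance cleavage of the procollagen end. Loxl1 (315, 88.5 and 93.9) is a crosslinking oxidase, whose difference was under 2-fold as a mean over probe sets.

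Secreted proteins enter the endoplasmic reticulum (ER), fold there with the help of chaperones, and leave in coated vesicles for the Golgi. Genes of each of these steps were shifted to the higher side. The ER chaperone and unfolded protein response list had 18 higher and 2 lower of 34 (median 1.01, and 0.79 to 1.04 over the processing alternatives). Hspa5 (BiP), the main ER chaperone, read 8106, 21948 and 24014 (2.96-fold higher), and its partner Hsp90b1 (GRP94) 4714, 13356 and 14785 (3.14-fold). The co-chaperone Dnajc3 was the furthest apart at 572, 2786 and 3879, with log2 ratios of 2.29 to 2.77 over 5 probe sets. Others that were higher included the disulfide isomerase Pdia5 (546, 1292 and 3157), the secreted ER stress protein Manf (3993, 9316 and 13481) and the ubiquitin ligase Syvn1 (498, 1148 and 1768), which clears misfolded proteins. Of the sensors and their factors, Atf6 read 335, 1417 and 1203 and Xbp1 4919.9, 9555 and 10955, while the kinase-type sensors Ern1 (log2 ratio 0.40) and Eif2ak3 (0.52) lay within 2-fold. The 2 lower members belong to the branch that answers amino acid lack and translational arrest: Atf4 read 9952, 7685 and 4704 and its target Trib3 1803, 801 and 342 (5.28-fold lower). Ddit3 (CHOP), the death-associated factor of that branch, read 1177, 752 and 904. The Atf4 difference was under 2-fold in 2 of the alternatives.

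The ER stress response element binds the factors Atf6 and NF-Y and reads CCAAT, then 9 bases of any kind, then CCACG. This pattern was searched on both strands in the 250 bases before the gene start, a search chosen after the values were seen. Promoter sequences came from RefSeq (build GRCm38.p6) and matched 11138 of the 13865 genes compared. The element was found in 10 of the 30 chaperone-list promoters (33.3%), against 14 of 11138 genes compared (0.126%) and 37 of all 32851 promoters (0.113%). The list holds genes of the response that this element is named for, so the share describes the list and not these arrays. Of these 10 list members, 6 were at least 2-fold higher and 0 lower (median log2 ratio 1.36); of the 20 without the element, 9 were higher and 2 lower (median 0.72). Of 4 other genes with the element, 0 were higher and 2 lower. Among these 4, Alg12 shares its site with the list member Creld2, at chr15:88819514-88819544. So few genes cannot show whether a match goes with a higher signal outside the list. The elements are printed below in their own orientation with 6 flanking bases, and capitals mark the CCAAT and CCACG ends. The first 6 lines are the members at least 2-fold higher, and the last 2 lie within 2-fold and show that the same ends occur there.
Dnajc3, chr14:118937821-118937851, gene on the + strand: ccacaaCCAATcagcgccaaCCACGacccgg
Syvn1, chr19:6046526-6046556, gene on the + strand: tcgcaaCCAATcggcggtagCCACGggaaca
Hsp90b1, chr10:86705632-86705662, gene on the - strand: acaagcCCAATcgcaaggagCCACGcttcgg
Hspa5, chr2:34772019-34772049, gene on the + strand: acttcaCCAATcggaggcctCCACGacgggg
Pdia6, chr12:17266485-17266515, gene on the + strand: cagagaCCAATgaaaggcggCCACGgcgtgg
Calr, chr8:84847069-84847099, gene on the - strand: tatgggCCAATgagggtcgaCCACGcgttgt
Canx, chr11:50325794-50325824, gene on the - strand: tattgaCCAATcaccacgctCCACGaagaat
Ero1b, chr13:12565676-12565706, gene on the + strand: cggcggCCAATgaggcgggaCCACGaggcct
Of the printed genes, Pdia6, a disulfide isomerase, read 3320.4, 7241 and 9487, the lectin chaperone Calr 8847, 14708 and 20275, its membrane relative Canx 7216, 8745 and 10288 and the oxidase Ero1b 273, 327 and 231. The element runs in the opposite direction to the gene in Calr and Ero1b. Hsp90b1 holds another copy nearer to its start.

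The other steps of the route gave smaller shifts, nearly all to the higher side. Of 24 genes of ER translocation, 8 were higher, and the 1 lower member, Trap1a, is a tumour antigen and not part of this route (median 0.77). Sec61a1, the channel through which proteins enter, read 4131, 7453 and 10468, its partner Tram1 1607, 2719 and 5338 and the translocon subunit Ssr3 4414, 9339 and 11517. Ssr4 was 2.55-fold higher, but its log2 ratio was -0.28 with unspecific probe sets left out. Vesicle transport genes had 14 higher and 0 lower of 40 (median 0.80). Sec24d and Sec23a, coat subunits of vesicles that leave the ER, read 545, 1478 and 3576 and 1669, 3106 and 4506. Kdelr3, a receptor that returns escaped chaperones to the ER, read 1333, 2619 and 5624, and its relatives Kdelr1 and Kdelr2 were 2.76-fold and 2.07-fold higher. The sorting protein Tmed3 read 274, 536 and 1133. N-glycosylation genes had 9 higher and 0 lower of 33 (median 0.78). The mannosidases that trim the attached sugar were furthest apart, Man1a at 80.2, 298 and 1256 (15.7-fold higher) and Man1a2 at 491, 749 and 2057. The oligosaccharyltransferase subunits Rpn1 (2.01-fold) and Rpn2 (2.02-fold higher) lay just past the threshold, and Rpn1 ranged from -0.20 to 1.42 on the log2 scale over 6 probe sets.

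**Figure D4:**
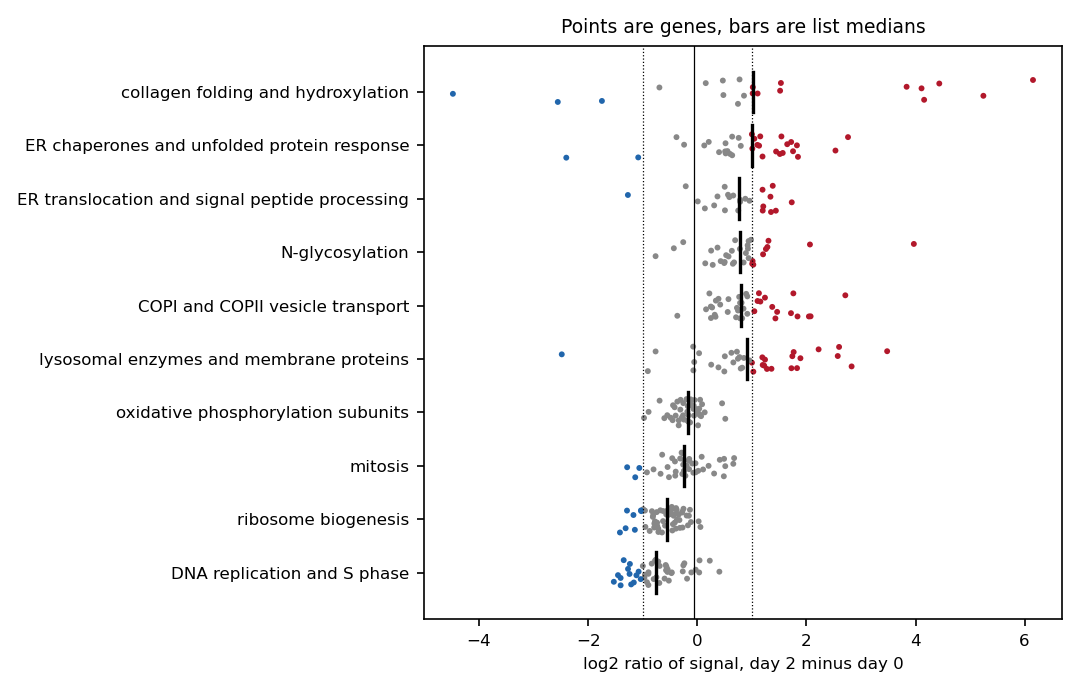
Log2 ratio of signal, day 2 minus day 0, for each compared gene of 10 lists; points are genes, spread vertically for legibility only, red where at least 2-fold higher and blue where at least 2-fold lower, and black bars are list medians. The solid vertical line is the median of all genes (-0.05) and the dotted lines mark 2-fold; medians of the secretory and lysosomal lists lie between 0.77 and 1.02, those of the lower 4 lists between -0.76 and -0.17.

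Heparan sulfate and proteoglycan genes included several of the furthest apart of all. Of 38 compared, 12 were higher and 3 lower (median 0.57, and 0.23 to 0.54 over the alternatives). Srgn, the core protein of an intracellular proteoglycan, read the floor, 8846 and 24195, and Chst15, which sulfates chondroitin, the floor, 894 and 3027 (at least 56.1-fold higher). The heparan sulfate 3-O-sulfotransferase Hs3st1 read 56.7, 1762 and 5928. Its polymerase subunits were less far apart, Ext1 at 3.05-fold and Ext2 at 2.14-fold higher. The glypicans Gpc3 (391, 293 and 1734) and Gpc6 (81.7, 55.4 and 670.3) carry such chains on the cell surface and were higher on day 2 alone, while the syndecan Sdc4 (2243, 10176 and 8902) was higher on both days. Xylt2, which starts the chains (234, 117 and the floor), and the exostosin relative Extl1 (311, 117 and 83.4) were lower.

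Protein uptake genes of the absorptive endoderm were bright on day 2. Cubn and Amn form the cubam receptor, which takes up cobalamin bound to intrinsic factor, albumin and other ligands, and Lrp2 (megalin) is the large receptor beside it. Cubn read the floor, 2542 and 20097, Amn 649, 4211 and 7428 (11.5-fold higher) and Lrp2 733, 4263 and 10301 (14.1-fold). Over its 3 probe sets, Lrp2 ranged from 0.14 to 4.13 on the log2 scale. Dab2, the adaptor that links these receptors to clathrin, read 71.9, 10964 and 24463, and Lrpap1, their chaperone in the ER, 6958, 27168 and 33372. The coat itself, Cltc, was 2.93-fold and the recycling GTPase Rab11a 4.15-fold higher. In the whole list of 32 endocytic genes, 8 were higher and 3 lower (median 0.33), so most members lay within 2-fold. The lower ones were the transferrin receptor Tfrc (6009, 3514 and 1942), the immunoglobulin receptor Fcgrt (245, 81.8 and the floor) and Lrp1 (307, 167 and 115).

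Lysosomal genes, which digest what is taken up, had 18 higher and 1 lower of 38, a share of 47.4% (median 0.91). The number higher ran from 12 to 19 over the processing alternatives. The protease legumain, Lgmn, read 1039, 1466 and 6191 and the cathepsins Ctsz 4242, 11989 and 19819 and Ctsh 85.5, 132 and 954. Ctsl, already bright on day 0, read 9235, 19348 and 30908, and its difference was under 2-fold in 1 alternative, as was that of Ctsc (876, 3699 and 6227). Beyond the proteases, the sialidase Neu1 (265, 633 and 1603), the membrane protein Lamp2 (642, 698 and 2382) and the cholesterol exporter Npc1 (249.9, 693 and 826) were higher. Several were much higher on day 2 than on day 1, with Lgmn, Ctsh and Lamp2 among them. The lower member was Manba, a mannosidase of glycoprotein breakdown, at 3872, 693 and 693 on its single probe set.

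Transporters of absorptive epithelia had 14 higher and 5 lower of 39 (median 0.44, and 0.37 to 0.71 over the alternatives). S100g, the calcium carrier of gut and yolk sac, was at the floor on day 0 and day 1 and read 3998 on day 2 (at least 74.0-fold higher). Aqp8, a water channel, read 119.5, 1404 and 4655, the membrane carbonic anhydrase Car4 79.4, 922 and 1573 and the magnesium channel Trpm6 the floor, 67.3 and 563. Slc39a8, which imports zinc and manganese, read the floor, 179 and 941 (at least 17.4-fold higher). The lactate carrier Slc16a1 read 3817, 4773 and 16256 and the endosomal chloride exchanger Clcn5 1358, 1148 and 4699, both little different on day 1. The efflux pumps Abcg2 (3136, 1795 and 1088) and Abcb1a (1355, 557 and 396) were lower, as was the glycerol channel Aqp3 (1168, 212 and 362).

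The metal handling list, which holds Slc39a8, had 2 higher and 5 lower of 28 (median -0.02). Metalloreductases of the Steap family, which reduce iron and copper, were lower: Steap1 read 1526, 306 and 169 and Steap2 416, 122 and 75.3. The metallothionein Mt2 read 19266, 7017 and 8324.

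Plasma proteins, a product of visceral endoderm before the liver forms, had 15 higher and 2 lower of 36 (median 0.46, and 0.28 to 1.28 over the alternatives). Amn, on this list, is a receptor subunit and not a plasma protein, and Mttp, Thbd, Procr and F3, also higher, are held in or on cells. Of the secreted members, Afp, Fga, Plg, Serpina1b and Serpinc1 were not above the floor on day 0 or day 2. Apoe (9049, 7684 and 7094) and Rbp4 (197, 89.1 and 149) lay within 2-fold. Selenop, the selenium carrier, read 121, 89.8 and 2842 and the retinol and thyroxine carrier Ttr the floor, 68.5 and 3728, both low until day 2. F3 (tissue factor), which starts coagulation, read 199, 1389 and 5164, and the protease Habp2 the floor, 169 and 807. The fibrinogen chains diverged, Fgb at the floor, the floor and 338 against Fgg at 172, the floor and the floor. Apom, a small lipid carrier, read 73.7, 101 and 378, and the trypsin inhibitor Spink1 1064, 2488 and 4996.

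Genes of cell contacts differed in both directions. Of 26 tight junction genes, 9 were higher and 2 lower (median 0.49, and 0.44 to 0.80 over the alternatives). The claudins Cldn6 (89.9, 188 and 2894) and Cldn7 (177, 142 and 1764), which seal the space between epithelial cells, reached their high signals only on the day 2 array, and occludin, Ocln (82.4, 264 and 598), was higher on both days. The polarity scaffold Patj read 108, 231 and 981 and tricellulin, Marveld2, the floor, 139 and 397. Jam2, a junctional adhesion molecule, was lower at 5499, 2183 and 709 (7.75-fold). Cadherin and desmosome genes had 3 higher and 6 lower of 25 (median -0.34). E-cadherin, Cdh1, read 3131, 1249 and 1480.2 and P-cadherin, Cdh3, 322, 59.6 and 64.6, whereas Cdh6, a kidney-type cadherin, read the floor, 430.3 and 1367 (at least 25.3-fold higher). The desmosomal proteins Dsp (311, 984 and 1140.0) and Dsc2 (92.4, 319.7 and 457) were higher.

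Matrix receptors were divided, with 4 higher and 5 lower of 26 (median -0.02). The integrin-linked kinase Ilk (795, 1549 and 2581) and its partner Parva (the floor, 157 and 727), which tie integrins to actin, were higher. Integrin alpha-6, Itga6, read 4662, 5459 and 2082 and the laminin receptor Bcam 2195, 586 and 130.1 (16.9-fold lower), although the laminin chains themselves were higher.

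Cytoskeletal genes had 12 higher and 3 lower of 36 (median 0.47). Gelsolin, Gsn, an actin-severing protein, read 70.7, 449 and 1930.5, with a range of 0.44 to 4.77 over 5 probe sets. The tropomyosin Tpm4 read 1045, 2958 and 8397, the membrane-binding annexins Anxa2 559, 1401 and 3609 and Anxa5 374, 801 and 1915. S100a6 was lower at 1798, 364 and 171 (10.5-fold), the opposite of S100g. Intermediate filaments had 3 higher and 5 lower of 20. Vimentin, Vim, read 10566, 14327 and 3209.7, and the nuclear lamins diverged, Lmna at 641, 1556 and 2239.6 and Lmnb2 at 1109.6, 488 and 293.

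Signalling genes differed in both directions within most pathways. In the BMP and TGF-beta pathway, 13 of 44 were higher and 10 lower (median 0.14). The ligands divided: Bmp2 read the floor, 2963 and 4056 and Bmp6 55.1, 587 and 471, against Bmp4 at 4682, 621 and 251, Gdf3 at 3506, 1669 and 342, Nodal at 2312, 226 and 237 and the activin subunit Inhbb at 1497, 124 and 64.8. Tdgf1 (Cripto), the Nodal co-receptor, read 15764, 1905 and 1534, and the Nodal inhibitors Lefty1 (673, 231 and 197) and Lefty2 (345, 207 and 118) were lower as well. Among other extracellular modulators, the activin inhibitor follistatin, Fst, was higher at 117, 211 and 3560.5 (30.4-fold), as was the BMP-binding protein Bmper at the floor, 769 and 2563 (at least 47.4-fold). Of the receptors, Tgfbr3 read the floor, 259 and 1007 and Tgfbr2 231, 484 and 712. The BMP target Id2 read 278, 623 and 1484 and Id1 2023, 6225 and 4988, while the inhibitory Smads Smad6 (1097, 579 and 334) and Smad7 (1788, 1073 and 863) were lower.

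In the FGF and ERK pathway, 9 of 36 were higher and 13 lower (median -0.20, and -0.77 to -0.13 over the alternatives). Fgf4, the main FGF of ES cells, read 3465, 296 and 238, whereas Fgf3 read 118, 516 and 611 and Fgf10 the floor, 311 and 662. The receptors went apart in the same manner: Fgfr1 read 395, 109 and 157, Fgfr2 386, 2341 and 949, Fgfr3 181, 824 and 785 and Fgfr4 96.0, 211 and 784. Klb, the co-receptor for endocrine FGFs, read the floor, 3359 and 7269.6 and the FGF receptor partner Flrt3 the floor, 4103 and 5598. Targets and feedback inhibitors of ERK signalling were lower, with Dusp6 at 1716, 184 and 84.7, Etv5 at 7269.8, 1662 and 725, Spry4 at 1023, 616 and 194 and Spred1 at 1435, 542 and 256.

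Other receptor tyrosine kinase genes had 11 higher and 5 lower of 36 (median 0.52). Pdgfra read the floor, 9365 and 7986, while its ligands Pdgfa (1376, 642 and 427) and Pdgfc (474, 105 and 59.3) were lower. The TAM receptors, which bind Gas6 and clear dying cells, were higher together with that ligand: Mertk read the floor, 687 and 506, Tyro3 457, 681 and 2074 and Gas6 201, 1812 and 1783. Flt1, a VEGF receptor, read the floor, 65.4 and 355, against the ligand Vegfc at 976, 241 and 83.4 (11.7-fold lower). Igf2, the fetal growth factor, read 771, 2692 and 4914, with 0.05 to 2.67 on the log2 scale over its 2 probe sets.

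Wnt genes had 9 higher and 9 lower of 40 (median 0.03). The secreted inhibitor Dkk1 read 79.6, 5816 and 5050.0 and the ligands Wnt4 the floor, 161 and 364 and Wnt11 114, 182 and 335, although Wnt4 ranged from -0.06 to 2.75 on the log2 scale over 2 probe sets. The receptor Fzd5 (1532, 556 and 419), the repressor Tcf7l1 (2272, 711 and 962) and the inhibitors Notum (860.1, 91.2 and 149.8) and Sfrp1 (757, 309.9 and 281) were lower, as was the target Ccnd1 (1424, 309.5 and 357).

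In the Hedgehog and Notch list, 3 of 33 were higher and 9 lower (median -0.04). Ihh, the Hedgehog ligand of visceral endoderm, read the floor, 186 and 894 (at least 16.6-fold higher), while the factors that carry out the response were lower, Gli2 at 2448, 221 and 92.3 and Gli1 at 456, the floor and the floor, and Gli3 read 236, 149 and 229. Notch4 was at least 3.79-fold lower on a dim signal, and its log2 ratio was 0.65 with a floor at the 25th percentile, so its direction was not stable.

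For the LIF and STAT3 pathway, which holds ES cells in self-renewal, 1 of 23 was higher and 6 lower (median -0.01). On their brightest probe sets the receptor and its transducer lay close to day 0, with Lifr at 2103, 1238 and 2095, Il6st at 1229, 1503 and 1376 and Stat3 at 2997, 2318 and 2770.5. Other probe sets differed more, with log2 ratios of -0.01 to 1.18 for Lifr and 0.16 to 1.24 for Il6st. Target genes divided, since Socs3 read 4348, 3073 and 3523 and Klf4 7216, 7641 and 9672, whereas Pim1 (1791, 795 and 502) and Bcl3 (1964, 720.0 and 547) were lower.

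Retinoid genes had 5 higher and 4 lower of 17 (median 0.36, and 0.17 to 0.40 over the alternatives). The retinoic acid-degrading enzyme Cyp26a1 read 110.4, 532 and 4787 (43.3-fold higher) and Rdh10, which makes retinal for retinoic acid synthesis, 206, 390.4 and 1235. The receptor Rarg (1629.7, 333 and 193) and the binding protein Crabp1 (500.1, 79.9 and the floor) were lower.

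Of 34 genes on the core pluripotency transcription factor list, 24 were lower, 70.6% against the background of 10.1%, and 1 was higher (median -1.98). The other 9 lay within 2-fold. Tdgf1, also on this list, is a co-receptor and not a transcription factor. Of the fixed set of regulators, Pou5f1 was lower at 4051, 1493 and 828 (4.89-fold). Sall4 lay within 2-fold at 8058, 11337 and 10794, with log2 ratios of 0.42 to 0.63 over its 2 probe sets. Beside Nanog (14631, 3442 and 1841) and Sox2 (11698, 2696 and 1212), the factors Zfp42 (Rex1) at 22582, 6204 and 3557, Utf1 at 8839, 2891 and 1099, Klf2 at 5786, 740.4 and 586 and Prdm14 at 995, 104 and 84.3 were lower. Most of the distance was already present on the day 1 array for Klf2 and Prdm14, whereas Jarid2 (11664, 7713 and 2818) and Mybl2 (7744, 6417 and 2583) differed mainly between day 1 and day 2. The higher member, Mycn, read 2976, 6151 and 8302, but its 3 probe sets ranged from -0.99 to 1.48, so it was not uniform, and Myc read 1181, 724 and 368.

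Germ cell and Dppa genes had 0 higher and 15 lower of 33 (median -0.80), and none was higher in any alternative. Morc1, which silences transposons in germ cells, read 6151, 577 and 292 (21.1-fold lower). Genes of the piRNA pathway and of meiosis that ES cells express were lower too: Mael read 1665, 1517 and 498, Tdrd12 373, 307 and 109, the meiotic cohesin Stag3 1950.0, 694 and 368 and the germ cell bridge protein Tex14 456, 211 and 109. Dppa4 read 6644, 4654 and 1894 and the RNA-binding protein Dazl 279, 267 and 119.

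DNA methylation genes had 1 higher and 7 lower of 20 (median -0.70). Tet1, which oxidises methylcytosine, read 6871, 2629 and 975 (7.05-fold lower) and Tet2 1159, 1255 and 706. Zfp57, which protects methylation at imprinted loci, read 868, 276 and 128. The maintenance cofactors Uhrf1 (4944, 2579 and 2053) and Hells (9489, 5368 and 3371) were lower, and the maintenance enzyme Dnmt1 read 4461, 3071 and 2318, just within 2-fold. The de novo enzymes were highest on the day 1 array and within 2-fold of day 0 on day 2: Dnmt3a read 969.6, 5334 and 1094 and Dnmt3b 6544, 14836 and 11154. Over its 5 probe sets Dnmt3a ranged from 0.17 to 1.26 on the log2 scale, past 2-fold at the upper end. The higher member, Gadd45g, a stress-response gene also linked to demethylation, read 97.8, 720.2 and 1264.

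Histone modifiers had 7 higher and 10 lower of 47 (median -0.48). Subunits of Polycomb complex 1 differed in both directions: Phc1 (7293, 1026 and 767) and Cbx7 (2098, 857 and 800.1) were lower, while Bmi1 (377, 1335 and 1806), Pcgf5 (839.6, 1441 and 3179) and Phc2 (524, 998 and 1113) were higher. The accessory factor Mtf2 of complex 2 read 11702, 9522 and 4087. Among demethylases, Kdm5b (5912, 2337 and 1874) and Kdm3a (6195, 2280.2 and 1719) were lower and Kdm6b (497, 1502 and 1508) was higher.

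Imprinted genes differed in both directions, with 10 higher and 6 lower of 37 (median 0.02). Peg3 read 550.1, 1605 and 4501, with 2.93 to 4.03 on the log2 scale over 3 probe sets, the growth inhibitor Cdkn1c 364, 318 and 956 and the placental growth regulator Phlda2 780.0, 736 and 1919.9. Mest (2192, 879 and 294) and Zdbf2 (920.4, 628 and 329) were lower.

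Growth and division genes were shifted by smaller steps. Of 47 DNA replication genes, 13 were lower and 0 higher (median -0.76), and the median stayed between -0.76 and -0.68 in every alternative. The DNA polymerase delta subunits Pold1 (3394, 2034 and 1177) and Pold2 (4869.5, 3419 and 1914), the ligase Lig1 (6505, 4684 and 2458) and the helicase subunit Mcm2 (10477, 7326 and 4683) were lower. These genes stepped down on each day. Ribosome biogenesis genes had 7 lower (11.9%, near the background of 10.1%) and 0 higher of 59 (median -0.55). Of the 59, 57 had a log2 ratio below 0, against 7384 (53.3%) of all 13865 genes compared. Tcof1, which supports ribosomal RNA transcription, read 2596, 1465 and 973, the processing factors Rrp1b 3652, 2482 and 1471 and Rrp12 1228, 762 and 503, and the nucleolar protein Npm1 38656, 35709.5 and 29538.

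Mitosis genes stayed close to day 0, with 3 lower and 0 higher of 41 (median -0.24). The mitotic kinase Cdk1 read 8334, 8500.3 and 7831, its cyclin Ccnb2 6964, 7942 and 5912 and the proliferation marker Mki67 3203, 4312 and 5117. Ect2, which places the division furrow, was lower at 3358, 2696 and 1379. The G1 regulators had 4 higher (15.4%) and 3 lower (11.5%) of 26, near the 11% and 10.1% of all genes compared. The D cyclins went apart, since Ccnd2 read 425, 411 and 1687 while Ccnd1 was lower and Ccnd3 read 9612, 4132 and 2297, although the Ccnd3 difference was under 2-fold as a mean over probe sets. The inhibitor Cdkn1a (p21) read 494, 202 and 1978, lower on day 1 and higher on day 2.

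Energy metabolism gave the only list with no gene past 2-fold. Of 45 oxidative phosphorylation subunits, 0 were higher and 0 lower (median -0.17, and 0.0036 with loess scaling), beside the 21.1% of all genes that differed in either direction. Within that range, 35 of the 45 (77.8%) had a log2 ratio below 0, against 53.3% of all genes compared. Cox5a, of complex IV, read 21643, 18801 and 19401 and the ATP synthase subunit Atp5c1 17177, 18246 and 15381. Glycolysis genes had 4 higher and 6 lower of 32 (median -0.25), with the fructose bisphosphatase Fbp2 highest on day 1 at 296, 4902 and 1494, and Pfkp (5996, 2037 and 1240.0) and Pdk1 (5806, 1559 and 819.9) lower. Amino acid and one-carbon genes had 2 higher and 6 lower of 41 (median -0.27). The mitochondrial folate enzyme Mthfd2 (5394, 3368 and 1734), the cystathionine lyase Cth (4041, 1792 and 1343) and the arginine carrier Slc7a3 (6208, 535 and 421) were lower, and glutamine synthetase, Glul (4731, 8263 and 11447), was higher.

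Lipid genes had 8 higher and 5 lower of 39 (median 0.42). Fabp3, a fatty acid carrier, read 2082, 7568 and 22679 (10.9-fold higher) and endothelial lipase, Lipg, 62.0, 204 and 891. Cpt1a, which admits fatty acids to mitochondria, was lower at 1607, 633 and 521, as was the phospholipid transfer protein Pltp at 1592, 1773 and 562. Hypoxia genes had 5 higher and 1 lower of 25 (median 0.17). Epas1 (HIF-2 alpha) read 1656, 409.6 and 7544, lower on day 1 and 4.56-fold higher on day 2, while Ndrg1 (259, 1249 and 2836) and the carbonic anhydrase Car12 (the floor, 263 and 585) were higher on both days.

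Genes of p53 response and cell death had 11 higher and 4 lower of 37 (median 0.13), most of them between 2-fold and 3-fold. The apoptosome scaffold Apaf1 read 475, 1001 and 1255, the BH3-only proteins Pmaip1 (Noxa) 538, 2090.0 and 1399 and Bid 1591, 843 and 703, and the growth inhibitor Btg2 486, 395 and 1253. For antigen presentation and interferon genes, 5 of 28 were higher and 7 lower (median -0.22). B2m, the light chain of MHC class I, read 617, 1622 and 4720.4. The class I heavy chains H2-K1 (814, 1008 and 2689.6) and H2-D1 (1259, 2322 and 4141) come from near-identical genes whose probes can share signal, and each was under 2-fold in 1 alternative. Interferon-induced genes went the other way, with Ifitm1 at 6792, 1122 and 706, Ifitm2 at 11033, 4266 and 2535 and Oas1a at 981, 381 and 271.

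RNA-binding and splicing regulators had 6 higher (14.6%) and 5 lower (12.2%) of 41 (median -0.12, and 0.03 as a mean over probe sets). These shares were near the 11% and 10.1% of all genes compared, so the genes below are single examples. The epithelial splicing factors Esrp1 (149, 106 and 708) and Esrp2 (171, 498 and 986) were higher. Muscleblind proteins, which favour differentiated splice forms, were also higher: Mbnl2 read 1262, 2494 and 3981, Mbnl3 177, 281 and 464 and Mbnl1 495, 741 and 1154, although Mbnl2 ranged from -0.49 to 1.66 over 5 probe sets and Mbnl1 was under 2-fold in 1 alternative. Elavl2, a neuronal RNA stabiliser, was lower at 1155, 487 and 253, with log2 ratios of -2.19 to 0.29 over 5 probe sets.

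The inducer is read here as a glucocorticoid, so its common targets were listed. Of 24 compared, 3 were higher and 6 lower (median -0.24). Tsc22d3 (GILZ), a direct receptor target, read 133, 213 and 240.0, but its 4 probe sets ranged from -0.82 to 0.85 on the log2 scale. Per1 read 226, 185 and 259 and Fkbp5 3375, 1284 and 786. The receptor Nr3c1 itself read 267, 385 and 554, and its difference was under 2-fold in 2 alternatives. The part of these genes in the results above was not tested, and cells given dex without Gata6 were not analysed here.

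GATA factors bind short motifs, and the sequences AGATAA or TGATAA and AGATAG or TGATAG were searched on both strands of the same 250-base promoters. At least 1 match lay in 210 of 1226 promoters of higher genes (17.1%), in 167 of 1101 of lower genes (15.2%) and in 1955 of 11138 of all genes compared (17.6%). The share in the higher genes was thus near that of all genes, and in all 32851 promoters, many of which belong to genes not compared, it was 26.5%. Among the 30 highest genes, 22 had a promoter sequence and 4 a match, namely Dab2, Klb, Flrt3 and Bend5. The promoter of Dab2, the gene with the third highest ratio, is printed as the highest of these 4 genes, at chr15:6299539-6299788 (GRCm38.p6, + strand), with the match 179 bases before the start in capitals.
Dab2: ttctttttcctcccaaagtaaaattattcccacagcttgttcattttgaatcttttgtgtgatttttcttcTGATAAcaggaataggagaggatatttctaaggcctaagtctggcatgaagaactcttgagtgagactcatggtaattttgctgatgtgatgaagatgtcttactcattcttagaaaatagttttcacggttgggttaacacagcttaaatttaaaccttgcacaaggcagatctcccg
A match describes these letters only, and enhancers farther from the start were not analysed here.

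The ends of the distribution held further genes outside the lists. Pth1r, the parathyroid hormone receptor of parietal endoderm, read the floor, 444 and 4408, and Nostrin, a trafficking protein, the floor, 1708 and 2633. Eva1a, an autophagy-linked membrane protein, read 80.6, 2469.5 and 3710.4, the chloride channel protein Clic6 the floor, 338 and 2297 and Bend5 128, 3203 and 5133. Glipr1 was at least 61.1-fold higher on 1 probe set, yet the log2 ratios of its 2 probe sets ran from 0.29 to 5.93. On the lower side, the elongation factor Tcea3 read 1734, 157 and 62.9, the ion pump regulator Fxyd6 3337, 436 and 191, the sarcosine oxidase Pipox 2101, 297 and 165, the ubiquitin hydrolase Uchl1 1181, 412 and 93.9 and the steroid dehydrogenase Hsd17b14 1158, 109 and 91.5. All of these lower genes were already far below day 0 on the day 1 array except Uchl1, which had most of its distance between day 1 and day 2 on the log2 scale.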

How the data were processed

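Expression was measured on 3 Affymetrix mouse arrays, 1 per day; RNA and labelling followed an Affymetrix one-cycle kit per the labels' protocols. Each deposited value is an intensity on a linear scale, 1 per probe set, made with MAS5 according to the submitters' processing notes, which give no version. Trimmed means of 497.5, 497.6 and 497.7 show a common scaling by the authors before deposit, whose target was not given in the sources used here. Such scaling assumes equal total signal on each day. No per-sample column was left unused.

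Of 45101 probe sets, 64 were controls, 34945 carried 1 gene, 932 several (left out) and 9160 none. Symbols came from the platform annotation, 34741 matching RefSeq. Each array was scaled to 1 trimmed mean (2%), values under the 40th percentile of all values (54.0) were set to that floor, and log2 was taken in Python 3.11.15 (numpy 2.4.6, pandas 2.3.3, scipy 1.17.1, statsmodels 0.14.6). A gene was read from the probe set whose log2 values averaged highest on the 3 arrays. The counting was tested on simulated data, with planted changes far past 2-fold in genes well above the floor. That check does not bear on dim genes or on differences near 2-fold. With 1 array a day no test was made, and precision is limited by the number of arrays.

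Genes named by rule, 217 in all, were the 30 highest and 30 lowest whose probe sets had 1 sign, the 4 widest of each list, and a fixed set of regulators; other genes were picked as examples after their values were seen. Gene members and lists were chosen with earlier results of these data known. Alternatives moved the floor, the fold threshold, the scaling, a pseudocount and the choice of probe set.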

Additional observations from a re-analysis of the deposited data

How the results depend on the processing

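No paired analysis was possible because each day has 1 array, and no array could be left out. The 1532 higher and 1399 lower genes were 720 and 540 at a 3-fold threshold, the count that moved most, and 1119 to 2058 higher and 943 to 1979 lower under the other 7 alternatives. Across those, 837 of the higher (54.6%) and 687 of the lower genes (49.1%) stayed past 2-fold. Medians counted as reversed were those of oxidative phosphorylation (0.0036 with loess scaling) and RNA-binding regulators (0.0288 as a mean over probe sets). That of neural markers was reversed too (-0.034 with a floor at the 25th percentile, -1.11 at the 60th, -0.0088 with a pseudocount of 20). Other medians that lay close to 0 were not counted as reversed but also took both signs over the alternatives. They were those of Wnt (-0.08 to 0.07), LIF and STAT3 (-0.11 to 0.06) and metal handling genes (-0.14 to 0.05). The same held for imprinted (-0.08 to 0.22), G1 (-0.10 to 0.13), mesoderm (-0.06 to 0.14) and fibroblast genes (-0.41 to 0.12). Among the 217 genes named by rule, those that reversed were Notch4 (0.65 with a floor at the 25th percentile, 0.49 with a pseudocount) and Ssr4 (-0.28 with unspecific probe sets left out). The cause was not tested.

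Beside the neural one, some medians moved by more than 0.42, the SD of the log2 ratio of a single gene. This SD is not the error of a median over a list, which was not estimated. These medians were those of endoderm transcription factors (1.23 to 2.68) and FGF and ERK genes (-0.72 with a floor at the 25th percentile, -0.77 at the 60th). With a floor at the 60th percentile, they were also those of basement membrane (1.15), plasma protein (1.28), fibroblast (-0.41) and trophoblast genes (0.15). Smaller moves took the basement membrane median down to 0.03 with a pseudocount and the heparan sulfate median to 0.23 with a floor at the 60th percentile. Of the 206 genes named by rule and called, 184 stayed past 2-fold with 1 sign in every alternative. Among the genes given as examples, Cdx2, Gata3, Ets2, Ext2, Fcgrt, Fgg, Hnf4a, Kdm6b, Lmna, Lrp1, Mycn, Rpn1, Smad7, Tgfbr2 and Xylt2 were also under 2-fold in at least 1 alternative.

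Dim genes are the least reliable: under a signal of 200 the SD of a log2 ratio was 0.52, against 0.15 over 5000, and a gene at the floor on 1 day has only a lower bound. Cultures were not replicated, so differences between cultures cannot be told apart from those between days.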

Other observations

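Gene families grouped by the letters of their symbols, a grouping chosen with the values in view, were listed where at least 15 members were compared. Among the 87 families, the Sec genes of membrane traffic had the highest median log2 ratio, 0.75, with 8 of 25 higher and 0 lower. The sorting nexins (Snx), which shape endosomes, followed with 6 of 28 higher and 1 lower (median 0.50), and the Rab GTPases of vesicle transport had 13 of 65 higher and 3 lower (median 0.31). Zinc finger genes named Zfp, the largest family at 304 members, had 23 higher (7.57%) and 37 lower (12.2%). Their median was -0.20. The Zbtb genes had 2 higher (5.13%) and 10 lower (25.6%) of 39 (median -0.33). For every family the background is the 11% higher and 10.1% lower among all genes compared, and the lower share of Zfp lay close to it.

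Of 9160 probe sets with no gene name, 4399 were above the floor on day 0 or day 2. Among these, 348 (7.91%) were at least 2-fold higher and 281 (6.39%) lower.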
